A study of Mus musculus with 5 samples.

Results

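The transcripts of *Rag1*, *Rag2*, *Dntt*, *Hmgb1* and *Hmgb2*, which encode the recombinase of antigen receptor genes, the terminal transferase TdT and a pair of DNA-bending cofactors, were examined in pro-B cells that lacked *Mef2c*. The members were chosen by gene symbol. These 5 genes were represented by 7 of the 23809 probe sets, and 4 of them, all but *Hmgb1*, had a probe set of their own and were among the 17323 genes tested. The 2 *Mef2c*-deficient samples came from Vav-Cre *Mef2c* fl/fl mice and the 3 control samples from mice labelled only as control. Both groups were 9 months old. Vav-Cre deletes the floxed gene throughout the haematopoietic system, so the deletion was not limited to B cells. By the methods of the study, a control could carry the floxed *Mef2c* allele without Cre, on both chromosomes (fl/fl) or on 1 (fl/+), or be fl/+ with Vav-Cre, and which of these each array held is not stated. The pro-B cells (B220+IgM-CD43+CD24+) were sorted from bone marrow, and their RNA was hybridised to Affymetrix Mouse Genome 430 2.0 arrays, 1 array per sample. The labels do not say whether the samples of a group came from separate mice, so the p-values measure the spread between these samples.

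V(D)J recombination joins variable, diversity and joining segments into a working immunoglobulin or T-cell receptor gene. RAG1, which holds the catalytic site, and its partner RAG2 cut the DNA at recombination signal sequences, and HMGB1 or HMGB2 bends the DNA so that a pair of such signals is held together. The broken ends are then rejoined by non-homologous end joining, and TdT, the product of *Dntt*, adds nucleotides without a template at the coding joints before they are sealed. In B-cell development the recombinase is made in pro-B cells, where the heavy chain locus is rearranged, and again in pre-B cells, where the light chain loci are rearranged, whereas TdT is a marker of the earlier of these stages.

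The deposited values are linear, and from their range they appear to be e, rather than 2, raised to the log2 signal. A deposited fold of 2 is then a 1.62-fold difference in signal. Fold changes below are on the log2 scale of these values, *Mef2c*-deficient minus control, and the thresholds of the study, a fold of at least 2 with an unadjusted limma p of at most 0.05, decided which genes were called. *Mef2c* itself had deposited values of 7379 and 6219 on the *Mef2c*-deficient arrays and 14006, 20854 and 17219.7 on the control arrays (log2 fold change −1.34, standard error 0.29, limma adjusted p = 0.0918). It was called here and under 10 of 15 alternative settings. Its log2 fold change was −0.32 after cyclic loess, −0.43 after a further quantile normalization and −0.54 with centring on housekeeping genes, none of them called, and −0.93 in signal, short of a fold of 2. The position of its probe set with respect to the deleted part of the gene is unknown here. Of all genes tested, 16.7% were called lower and 9.65% higher in *Mef2c*-deficient pro-B cells, and none had an adjusted limma p under 0.05, while 5592 had an unadjusted p under 0.05. Of the 14 listed markers of pro-B cells 10 were measured, and 9 or 10 of these lay above the array median on each array. Granulocyte transcripts were bright on all 5 arrays too, with *S100a9* at 1285283 and 1723651 on the *Mef2c*-deficient arrays and 1906818, 2045829 and 978061 on the control arrays. RNA was taken from bulk samples, so fewer cells of a type and less RNA per cell cannot be told apart.

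No member was called lower or higher in *Mef2c*-deficient pro-B cells. Among the 4 genes with a probe set of their own, 0 were called lower, where the share over all genes was 16.7%. All 4 log2 fold changes were negative, with a median of −0.65, beside a median of 0.04 over all genes. *Rag1*, *Rag2* and *Dntt* were among the genes with the widest spread between replicates, whereas *Hmgb2* and 2 of the 3 probe sets shared by *Hmgb1* were at or below the median spread. The third, 1416176_at, was at percentile 78.9.

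*Rag1*, the catalytic subunit of the recombinase, was measured by probe set 1450680_at. It had deposited values of 31149.9 and 21023 on the *Mef2c*-deficient arrays and of 19797, 13317 and 140899 on the control arrays. Control replicate 3 was 4.52-fold above the next highest array, and the *Mef2c*-deficient arrays lay between control replicates 1 and 3, so the groups overlapped. The mean was 26087 ± 7160.5 (SD, n = 2) in *Mef2c*-deficient and 58004 ± 71862 (SD, n = 3) in control pro-B cells. The log2 fold change was −0.38 (standard error 1.09, 95% interval −3.17 to 2.40, unadjusted limma p = 0.739, adjusted p = 0.794), and an exact permutation test over the 5 arrays gave a two-sided p of 1. With 2 arrays against 3 this permutation test has 10 arrangements and cannot give a p below 0.2. In signal, *Rag1* was 1.20-fold lower in *Mef2c*-deficient cells, and the interval spans changes of several fold in either direction.

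*Rag2*, the non-catalytic subunit that binds modified histone H3 and carries the recombinase to open chromatin, followed the same order of high and low arrays only in part. Its probe set, 1418065_at, read 1878 and 2758 on the *Mef2c*-deficient arrays, against 2781, 1098 and 22769 on the control arrays. Control replicate 3 was again the highest, 8.19-fold above the next array, and control replicate 2 the lowest, as it was for *Rag1*. The mean was 2318 ± 622 (SD, n = 2) in *Mef2c*-deficient and 8883 ± 12055 (SD, n = 3) in control cells. The log2 fold change was −0.85 (standard error 1.32, 95% interval −4.24 to 2.53, unadjusted limma p = 0.546, adjusted p = 0.626, exact permutation p = 0.8), a 1.51-fold difference in signal.

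**Figure D1:**
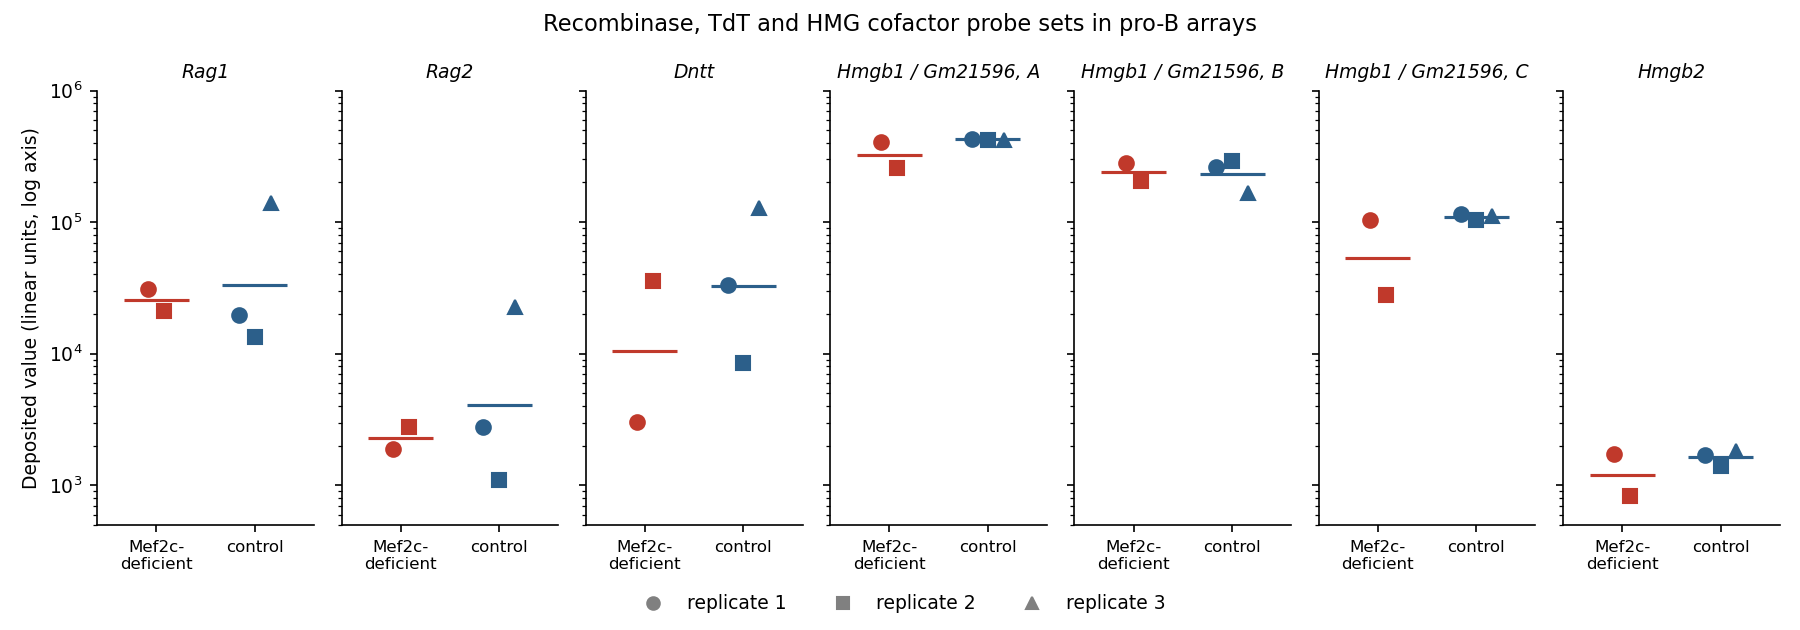
Deposited values of the 7 probe sets (vertical log axis, linear units) on the 2 Mef2c-deficient and 3 control arrays, with the replicate number as the marker shape and the geometric mean of each group as a line. A, B and C are the 3 probe sets shared by Hmgb1 and Gm21596 (1439463_x_at, 1448235_s_at and 1416176_at). Control replicate 3 stands above every other array for Rag1, Rag2 and Dntt, and Mef2c-deficient replicate 1 is the lowest for Dntt.

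That *Rag1* and *Rag2* averaged lower in *Mef2c*-deficient cells rested on control replicate 3. Without it, the log2 fold change was 0.66 for *Rag1* (standard error 0.38, adjusted p = 0.36) and 0.38 for *Rag2* (standard error 0.59, adjusted p = 0.655), each in the opposite direction and neither called by limma. Without control replicate 2 the same values were −1.05 and −1.81. Control replicate 3 exceeded the mean of the other controls 8.51-fold for *Rag1* and 11.7-fold for *Rag2*. Of all genes, 299 (1.73%) were highest on control replicate 3 by at least 3-fold over the next array, and *Rag1*, *Rag2* and *Dntt* were among them. The rank of *Rag1* among all probe sets of its own array, which does not depend on the scaling between arrays, was at the percentiles 97.9 and 96.8 on the *Mef2c*-deficient arrays and 94.8, 93.0 and 99.2 on the control arrays. For *Rag2* the percentiles were 81.9 and 86.0 on the *Mef2c*-deficient arrays, and 81.0, 72.0 and 95.1 on the control arrays.

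Some markers of B-cell stages were also highest on control replicate 3. Of 10 measured pro-B markers, 8 were highest on this array, and of 6 measured markers of later B-lineage cells, 3 were. The pro-B margins over the next array ran from 1.03-fold (*Cd79a*) to 2.65-fold (*Kit*), smaller than those of the *Rag* genes. The share of all genes highest on this array was not computed. Its upper quartile over all probe sets, 1850, was the highest, beside 1072 and 968 (*Mef2c*-deficient) and 1478 and 1470 (other controls). The summed level of the pro-B markers was 1209297 and 617097 on the *Mef2c*-deficient arrays and 1055051, 925324 and 1290454 on the control arrays. Much of this sum was *Cd24a*, at 683783 and 152861 on the *Mef2c*-deficient arrays and 564591, 528504 and 532013 on the control arrays. The low sum of *Mef2c*-deficient replicate 2 thus rested largely on 1 gene. *Il2ra*, which encodes CD25 and marks pre-B cells, was at 10167 and 3549 on the *Mef2c*-deficient arrays and at 4597, 2923 and 20528 on the control arrays. The summed level of the later B-lineage markers was 27456 and 46361 on the *Mef2c*-deficient arrays and 13917, 19101 and 59609.5 on the control arrays. *Ms4a1*, which encodes CD20, did not follow this order, with 5706 and 26191 on the *Mef2c*-deficient arrays and 778, 3271 and 15689.6 on the control arrays. Nor did *Cd22*, with 540 and 618 on the *Mef2c*-deficient arrays and 3982, 6507 and 4146 on the control arrays. It was the only later B-lineage marker called (log2 fold change −3.04, limma adjusted p = 0.0895). The granulocyte list was low on the same array and on *Mef2c*-deficient replicate 1, with sums of 2464003 and 5736619 on the *Mef2c*-deficient arrays and of 4398658, 4882928 and 2243345 on the control arrays. No listed marker was at 0 on any array. Values that are e raised to a signal cannot be 0, so this does not show that each marker was expressed. The part of these markers in the spread of *Rag1* and *Rag2* was not tested.

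*Rag1* and *Rag2* were close in pattern over the 5 arrays. Both stood furthest from their own means on control replicate 3, with log2 deviations of 2.23 and 2.81. On *Mef2c*-deficient replicate 1 the deviations were 0.054 for *Rag1* and −0.79 for *Rag2*. The root mean square difference of their log2 deviations from their own means was 0.533, and 0.404% of the compared genes lay closer to *Rag1* than *Rag2* did. The log2 difference *Rag1* minus *Rag2* within an array was 4.05 and 2.93 on the *Mef2c*-deficient arrays and 2.83, 3.60 and 2.63 on the control arrays. These differences overlapped between the groups, and their means differed by 0.47 (exact permutation p = 0.4, two-sided). With a smallest possible p of 0.2, this test could not show an unequal change of the subunits. The size of such a difference depends on the brightness of the probes and is no ratio of transcript numbers. The genes nearest in pattern to *Rag1* were *Rapgefl1* (root mean square difference 0.158), *Gpat3* (0.237), *Ifnar2* (0.280), *Mylip* (0.300) and *Uchl1* (0.303), out of 8661 genes compared. *Rapgefl1* read 2171 and 1171 on the *Mef2c*-deficient arrays and 1204, 733 and 10069 on the control arrays. For *Rag2* they were *Tnfsf10* (0.300), 1700048O20Rik (0.328), *Frmd6* (0.389), *Ifnar2* (0.407) and *Mylip* (0.411), so that 2 of the 5 were shared by both lists.

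*Rag1* and *Rag2* are transcribed towards each other from opposite strands of chromosome 2. The 250 bases before each start are shown because the pair was close in pattern on these arrays. The sequences are from RefSeq (GRCm38.p6), written 5′ to 3′ on the strand of the gene. *Rag1* is at chr2:101649533-101649782, minus strand, and *Rag2* at chr2:101624462-101624711, plus strand. Capitals mark E-boxes (CANNTG, searched on both strands) and, in *Rag2*, also the single match to the MEF2 consensus, which precedes the E-box.
Rag1: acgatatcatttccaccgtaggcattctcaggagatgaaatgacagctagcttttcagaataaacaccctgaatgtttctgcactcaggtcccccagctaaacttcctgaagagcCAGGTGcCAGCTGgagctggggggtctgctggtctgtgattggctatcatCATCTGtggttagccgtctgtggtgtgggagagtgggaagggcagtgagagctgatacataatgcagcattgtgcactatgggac
Rag2: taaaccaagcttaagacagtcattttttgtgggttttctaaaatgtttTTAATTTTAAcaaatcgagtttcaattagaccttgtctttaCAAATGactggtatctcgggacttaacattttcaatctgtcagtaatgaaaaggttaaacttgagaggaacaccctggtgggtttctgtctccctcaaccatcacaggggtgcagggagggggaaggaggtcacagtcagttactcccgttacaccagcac
*Rag1* held 3 E-boxes and *Rag2* 1, where 66.2% of 32851 RefSeq mouse promoter windows of this length held at least 1. The MEF2 consensus (both strands) was found in 2.9% of these windows. *Rag2* held 1 match, which overlapped no E-box, and *Rag1*, *Dntt*, *Hmgb1* and *Hmgb2* held 0 in their windows. The FOXO motif GTAAACA, present in 3.2% of the windows on either strand, was in none of the member windows. The GC content was 50.8% for *Rag1* and 41.2% for *Rag2*, beside a median of 52.4% over all windows. A match is a description of these letters, and the absence of one says only that these letters are not in this window.

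*Dntt* had the lowest fold change of the members and the widest spread. Its probe set, 1450545_a_at, read 3050.2 and 35539 on the *Mef2c*-deficient arrays and 33157, 8488 and 127098 on the control arrays. *Mef2c*-deficient replicate 1 was the lowest array, 2.78-fold below the next, while *Mef2c*-deficient replicate 2 was above control replicates 1 and 2. The mean was 19295 ± 22973 (SD, n = 2) in *Mef2c*-deficient and 56248 ± 62586 (SD, n = 3) in control cells. The log2 fold change was −1.66 (standard error 1.53, 95% interval −5.60 to 2.28, unadjusted limma p = 0.328, adjusted p = 0.424, exact permutation p = 0.6), which is a 2.22-fold lower signal in *Mef2c*-deficient cells and did not pass. The arrays covered a 41.7-fold range, and the spread within groups (residual SD 2.15 on the log2 scale) was wider than that of 99.4% of genes. Leaving out *Mef2c*-deficient replicate 1 moved the log2 fold change to 0.11 and leaving out *Mef2c*-deficient replicate 2 moved it to −3.43, so that the sign rested on 1 array. Leaving out control replicate 2 gave −2.64 and leaving out control replicate 3 gave −0.69, and in none of these fits was *Dntt* called.

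On *Mef2c*-deficient replicate 1, *Dntt* parted from the recombinase genes. The log2 difference *Dntt* minus *Rag1* was −3.35 and 0.76 on the *Mef2c*-deficient arrays and 0.74, −0.65 and −0.15 on the control arrays, with group means that differed by −1.28 (exact permutation p = 0.8). On the other 4 arrays this difference thus stayed between −0.65 and 0.76. *Dntt* ranked at the percentiles 86.7 and 97.9 on the *Mef2c*-deficient arrays and 96.7, 90.1 and 99.1 on the control arrays. Among all genes, 384 (2.22%) were lowest on *Mef2c*-deficient replicate 1 by at least 3-fold, a margin that *Dntt* did not reach. The genes nearest to *Dntt* in pattern were less close than those of the *Rag* genes. *Mrpl57*, which encodes a mitochondrial ribosomal protein, was the nearest (0.501) and read 75.0 and 360 on the *Mef2c*-deficient arrays and 497, 214 and 1815 on the control arrays. *Myl10* (0.571), *Zfp866* (0.606), *Erg* (0.656) and *Frmd4a* (0.658) followed. *Erg*, which encodes an ETS transcription factor of haematopoietic stem cells, read 1480.4 and 11095 on the *Mef2c*-deficient arrays and 5909, 1363 and 18911 on the control arrays.

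The region before the start of *Dntt* is shown for its E-boxes, again from RefSeq with E-boxes in capitals, at chr19:41029025-41029274, plus strand of GRCm38.p6.
Dntt: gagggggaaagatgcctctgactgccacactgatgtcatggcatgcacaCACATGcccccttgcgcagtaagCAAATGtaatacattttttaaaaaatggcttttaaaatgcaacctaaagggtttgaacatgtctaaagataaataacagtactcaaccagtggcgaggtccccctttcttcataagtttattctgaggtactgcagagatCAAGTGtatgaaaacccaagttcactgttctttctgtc
The window held 3 E-boxes and no match to CCAAT or to the motif TATAAA, which 12.4% of the windows held on either strand. Its GC content was 41.6%, near that of *Rag2*.

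**Figure D2:**
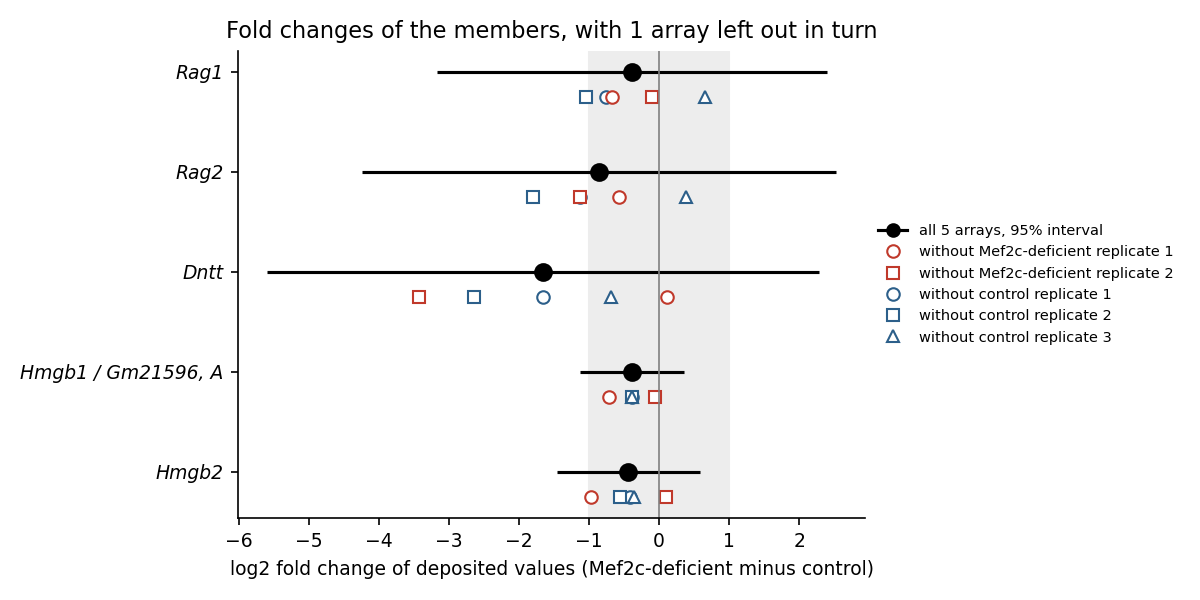
Log2 fold change (horizontal axis, Mef2c-deficient minus control) of each member. Black points and lines are the fit to all 5 arrays with its 95% interval, open markers the fits with 1 array left out, and the grey band spans folds below 2. The open markers of Rag1, Rag2, Dntt and Hmgb2 fall on both sides of 0.

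*Hmgb1* could not be measured apart from a related sequence. Each of its 3 probe sets is annotated also to *Gm21596*, and 1448235_s_at to 4932431P20Rik as well, so the values below belong to these genes together and come from a fit over all 23809 probe sets. Probe set 1439463_x_at was the brightest of the 3 and read 407309.5 and 259215 on the *Mef2c*-deficient arrays, against 425947, 424317 and 423515 on the control arrays. The control arrays were within 1.01-fold of each other, and both *Mef2c*-deficient arrays were below them. Groups did not overlap in 54.2% of all genes tested, 28.4% with *Mef2c*-deficient arrays below control. The mean was 333262 ± 104719 (SD, n = 2) in *Mef2c*-deficient and 424593 ± 1239 (SD, n = 3) in control cells, with a log2 fold change of −0.39 (standard error 0.29, 95% interval −1.13 to 0.35, unadjusted limma p = 0.237, adjusted p = 0.351, exact permutation p = 0.2, the smallest possible). This was 1.20-fold in signal.

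The other shared probe sets did not give the same picture. Probe set 1448235_s_at read 281735 and 205358 on the *Mef2c*-deficient arrays and 264162, 291791 and 165179 on the control arrays, where control replicate 3 was the lowest. Its log2 fold change was 0.04 (standard error 0.36, limma adjusted p = 0.934). Probe set 1416176_at read 102932 and 28129 on the *Mef2c*-deficient arrays and 116198, 102937 and 111295 on the control arrays, so that only *Mef2c*-deficient replicate 2 stood apart, 3.66-fold below the next array. Its log2 fold change was −1.03 (standard error 0.59, unadjusted limma p = 0.140, exact permutation p = 0.2). Without *Mef2c*-deficient replicate 1 it was −1.97, and without *Mef2c*-deficient replicate 2 it was −0.10.

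*Hmgb2*, whose product is made mostly in dividing cells, was measured by probe set 1438307_at. It read 1739 and 829 on the *Mef2c*-deficient arrays and 1702, 1399.8 and 1823 on the control arrays. *Mef2c*-deficient replicate 1 lay within the range of the controls and *Mef2c*-deficient replicate 2 below it. The mean was 1284 ± 644 (SD, n = 2) in *Mef2c*-deficient and 1641 ± 218 (SD, n = 3) in control cells. The log2 fold change was −0.44 (standard error 0.40, 95% interval −1.46 to 0.58, unadjusted limma p = 0.317, adjusted p = 0.413, exact permutation p = 0.6), or 1.24-fold in signal. Its sign turned without *Mef2c*-deficient replicate 2, to 0.09, and without *Mef2c*-deficient replicate 1 the log2 fold change was −0.98, just under a fold of 2. The residual SD of *Hmgb2* was at the median of all genes, whereas those of *Rag1*, *Rag2* and *Dntt* were at the percentiles 97.1, 98.8 and 99.4.

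*Hmgb2* and probe set 1439463_x_at of *Hmgb1* moved together. Both were lowest on *Mef2c*-deficient replicate 2, where 1003 genes (5.79%) were lowest by at least 3-fold, a margin that neither reached. Their root mean square difference was 0.184, and 1.84% of the compared genes lay closer to the *Hmgb1* probe set than *Hmgb2* did. The log2 difference *Hmgb1* minus *Hmgb2* was 7.87 and 8.29 on the *Mef2c*-deficient arrays and 7.97, 8.24 and 7.86 on the control arrays, and the group means differed by 0.057 (exact permutation p = 0.8). The genes nearest to the *Hmgb1* probe set were *Sod1* (0.035), *Pnpla2* (0.039), *Nprl3* (0.039), *Gpr84* (0.042) and *Itpr3* (0.048). *Sod1*, which encodes a superoxide dismutase, read 1377 and 877 on the *Mef2c*-deficient arrays and 1525, 1424 and 1424 on the control arrays. Those nearest to *Hmgb2* were *Ifi27* (0.080), *Ppp6r1* (0.092), *Hltf* (0.104), *Baz2b* (0.107) and *Msl3l2* (0.108). Marker lists shifted in both directions on the same array. Of 12 measured T and NK cell markers 8 were highest and 1, *Prf1*, was lowest on *Mef2c*-deficient replicate 2, and their summed level was 7100.5 and 43313 on the *Mef2c*-deficient arrays and between 11137 and 13880 on the control arrays. Of 10 granulocyte markers 6 were highest there and 0 lowest, and of 7 measured plasmacytoid dendritic cell markers 5 and 0. The macrophage sum, 9616, was below that of control replicate 2 (9977), and the erythroid sum (9754) and the plasma cell sum (182641) were the lowest of the 5 arrays. Of 5 measured erythroid markers, however, 3 were highest there, ties counted, and 1, *Tfrc*, was lowest. *Tfrc*, the brightest of them, read 13528 and 5129 on the *Mef2c*-deficient arrays and 21160, 19635 and 20068 on the control arrays. Of 6 plasma cell markers 2 were highest there and 2 lowest. Of 10 measured pro-B markers 4 were lowest there and 1, *Ptprc*, was highest. *Ebf1*, a transcription factor that specifies the B lineage, was among those lowest, with 29295 and 3026 on the *Mef2c*-deficient arrays and 31733, 29295 and 35416 on the control arrays, whereas *Cd79a*, a signalling chain of the B-cell receptor, was not, with 231011 and 250654 on the *Mef2c*-deficient arrays and 167188, 153021 and 257531 on the control arrays. The part of these shifts in the low *Hmgb* values was not tested.

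The regions before the starts of *Hmgb1* (chr5:149053058-149053307, minus strand) and *Hmgb2* (chr8:57511593-57511842, plus strand) are shown for a motif they share. Capitals mark CCAAT boxes (CCAAT, searched on both strands), from RefSeq, GRCm38.p6.
Hmgb1: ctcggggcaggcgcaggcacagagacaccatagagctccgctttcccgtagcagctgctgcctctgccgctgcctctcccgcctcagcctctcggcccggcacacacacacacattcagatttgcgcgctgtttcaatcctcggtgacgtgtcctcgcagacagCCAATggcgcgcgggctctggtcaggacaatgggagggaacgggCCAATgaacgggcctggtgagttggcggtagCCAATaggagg
Hmgb2: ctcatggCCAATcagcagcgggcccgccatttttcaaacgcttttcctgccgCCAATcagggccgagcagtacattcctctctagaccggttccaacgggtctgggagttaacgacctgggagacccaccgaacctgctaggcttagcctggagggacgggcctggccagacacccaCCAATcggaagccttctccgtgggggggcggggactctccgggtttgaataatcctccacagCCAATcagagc
*Hmgb1* held 3 CCAAT boxes in this window and *Hmgb2* 4, where 33.8% of all windows held at least 1. A further RefSeq start of *Hmgb1* had 0. *Rag1* held 1, on the opposite strand, and *Rag2* and *Dntt* held 0. The GC content was 63.6% for *Hmgb1* and 60.4% for *Hmgb2*, above that of the recombinase genes and *Dntt*.

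**Figure D3:**
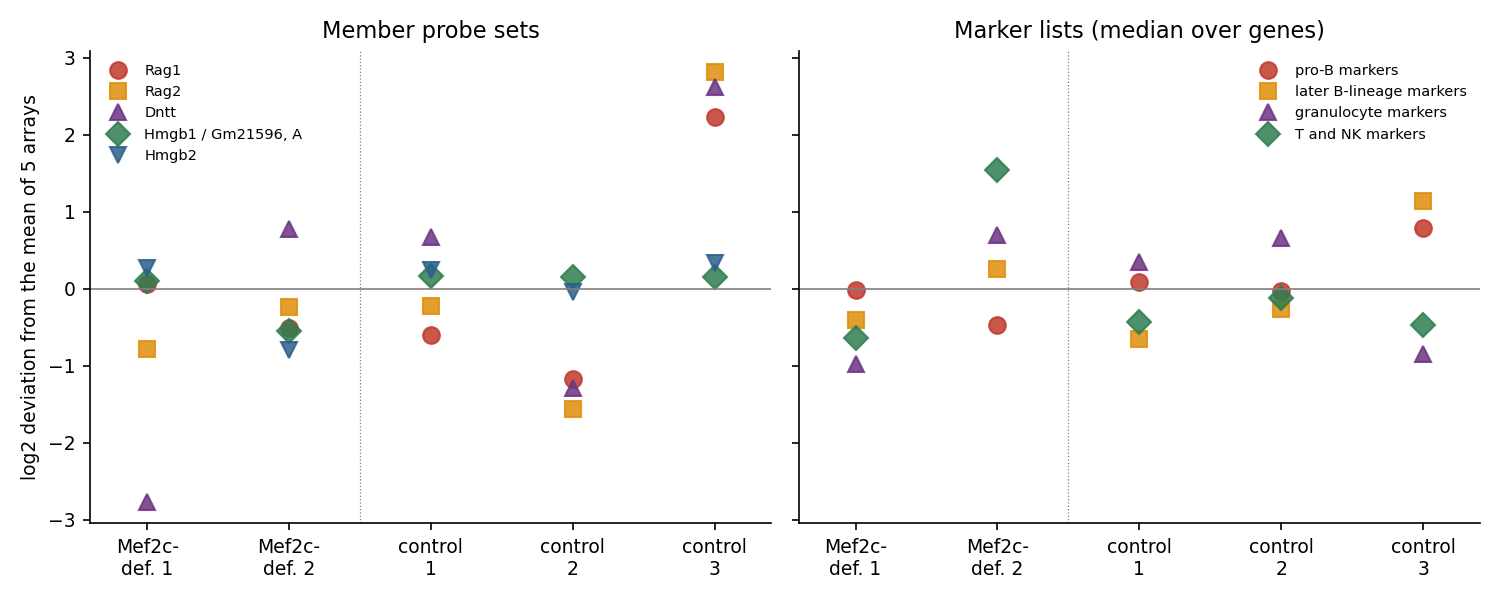
How far each array lay from the 5-array mean on the log2 scale (vertical axis), for 5 member probe sets (left) and as the median over genes of 4 marker lists (right), with Mef2c-deficient arrays left of the dotted line and control arrays right of it. Rag1, Rag2 and Dntt lie more than 2 above the mean on control replicate 3, where the pro-B and later B-lineage markers are also highest. Hmgb1 and Hmgb2 are lowest on Mef2c-deficient replicate 2.

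The members were bright probe sets, and bright genes were mostly lower on the *Mef2c*-deficient arrays. In 10 groups of genes by mean level, numbered upwards from the dimmest, *Rag1* and *Dntt* lay in group 10, *Rag2* in group 9 and *Hmgb2* in group 8. In group 10, 32.8% of genes were called lower and the median log2 fold change was −0.91. In group 9 these values were 40.9% and −1.10, and in group 8 they were 34.1% and −1.004. The log2 fold changes of *Rag1* (−0.38), *Rag2* (−0.85) and *Hmgb2* (−0.44) were thus less negative than the median of their own group, and that of *Dntt* (−1.66) was more negative. None of these positions was tested, and the 95% intervals of *Rag1*, *Rag2*, *Dntt* and *Hmgb2* contain all of these medians.

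The end joining factors that seal RAG-made breaks were not called either. Of 8 listed genes 7 were measured, and 0 were lower and 0 higher, where 16.7% and 9.65% of all genes were. The list had a median log2 fold change of −0.55. This median turned to 0.016 after quantile normalization, 0.20 after cyclic loess and 0.25 with housekeeping centring. *Xrcc4*, the scaffold of DNA ligase IV, read 307 and 30.8 on the *Mef2c*-deficient arrays and 307, 279.6 and 398 on the control arrays (log2 fold change −1.74, adjusted p = 0.25), so that only *Mef2c*-deficient replicate 2 stood apart. *Xrcc5*, which encodes Ku80, had a log2 fold change of −0.98 (adjusted p = 0.215), *Xrcc6*, which encodes Ku70, of −0.77 (adjusted p = 0.432) and *Lig4* of −0.55 (adjusted p = 0.459). *Lig4* and *Xrcc6* were highest on control replicate 3, at 10000.4 and 66109, as the *Rag* genes were.

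Among the 3 other polymerases of family X, the family of TdT, *Poll* was called lower, where 16.7% of all genes were. It read 215 and 146 on the *Mef2c*-deficient arrays and 513, 561 and 596 on the control arrays (log2 fold change −1.65, standard error 0.29, adjusted p = 0.0895). This call held under 14 of 15 alternative settings. *Polm*, the closest relative of TdT, read 5697 and 155 on the *Mef2c*-deficient arrays and 2655, 2874 and 9255 on the control arrays (log2 fold change −2.14, adjusted p = 0.345), and *Polb* had a log2 fold change of −1.30 (adjusted p = 0.215). Of 3 genes whose products bind TdT, *Dnttip1* and *Dnttip2* were lower. All 3 lay in level groups 8 to 10, where 35.9% of genes were called lower. *Dnttip1* read 2568 and 1466 on the *Mef2c*-deficient arrays and 7601, 6644 and 5199 on the control arrays (log2 fold change −1.72, standard error 0.36, adjusted p = 0.0907), and kept its call under 12 of 15 settings. It lost the call after quantile normalization, cyclic loess and housekeeping centring (−0.92 to −0.76). *Dnttip2* read 4692 and 427 on the *Mef2c*-deficient arrays and 10008, 7454 and 11367 on the control arrays (log2 fold change −2.74, adjusted p = 0.149), and was not called without control replicate 1, 2 or 3, with values of −2.91 to −2.61, nor under the same 3 scalings (−1.94 with housekeeping centring and −1.76 after cyclic loess). *Pcna*, the sliding clamp, had a log2 fold change of −0.38.

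Of 8 other genes of the HMG families 5 were measured. Of these, 3 lay in level groups 8 to 10, where 35.9% of genes were called lower. *Hmgn5*, a nucleosome-binding protein, was the only 1 of the 5 called. It read 6375 and 1565 on the *Mef2c*-deficient arrays and 14879, 11020.4 and 19785 on the control arrays (log2 fold change −2.23, adjusted p = 0.115), but it did not pass when control replicate 1 or 3 or *Mef2c*-deficient replicate 2 was left out (−2.23 to −1.22), or under the 3 scalings (−1.43 to −1.21). *Hmgb3*, the nearest relative of *Hmgb1* and *Hmgb2* in this list, read 31058 and 11956 on the *Mef2c*-deficient arrays and 56072, 31058 and 47295 on the control arrays (log2 fold change −1.18, adjusted p = 0.186). *Hmga2* (1.27), *Hmgn1* (−0.86) and *Hmgb4* (0.66) did not pass either.

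Of 15 listed transcription factors known to act on the *Rag* genes 11 were measured, with a median log2 fold change of −1.18, and 4 were lower and 0 higher. Over all genes tested 16.7% were called lower. Of the 11, 9 lay in level groups 8 to 10, where 35.9% of all genes were called lower. Of the 4 called, *Ets1* and *Runx1* lay in these groups. *Nfatc1* and *Gfi1b* were dimmer, in groups 6 and 7, where 15.6% and 25.3% were called lower. The median of the list was −0.33 after cyclic loess, −0.38 with housekeeping centring and −0.64 after quantile normalization, with 0 or 1 genes called. Without *Mef2c*-deficient replicate 2 it was −0.25. *Ets1* (−1.86), *Nfatc1* (−1.39), *Runx1* (−1.35) and *Gfi1b* (−1.09) passed, with adjusted p between 0.111 and 0.153. *Gfi1b* encodes a repressor of *Rag* transcription and *Runx1* and *Ets1* encode activators of B-cell genes. These calls held under 6 (*Ets1*), 8 (*Nfatc1*), 5 (*Runx1*) and 4 (*Gfi1b*) of 15 settings. *Runx1* was −0.33 after cyclic loess and −0.48 after quantile normalization, *Ets1* was −0.83 and −0.96, and *Gfi1b* −0.64 and −0.73, none of them called. With housekeeping centring 0 of the 4 were called (*Gfi1b* −0.29), and *Nfatc1*, *Runx1* and *Gfi1b* fell short of a fold of 2 in signal. Each call also ended without 3 or 4 of the 5 arrays in turn. *Ets1* was then between −2.12 and −0.77 (without any control array or *Mef2c*-deficient replicate 2), *Nfatc1* between −1.38 and −0.87 (control replicates 2 and 3, *Mef2c*-deficient replicate 2), *Runx1* between −1.75 and −0.95 (control replicates 1 and 3, either *Mef2c*-deficient array) and *Gfi1b* between −1.26 and −0.79 (control replicates 2 and 3, either *Mef2c*-deficient array). *Foxo1*, a direct activator of *Rag1* and *Rag2* in B-cell precursors, read 40412 and 63243 on the *Mef2c*-deficient arrays and 20375, 18491 and 81457 on the control arrays (log2 fold change 0.69, adjusted p = 0.491), again highest on control replicate 3. *Ikzf1* (−1.93), *Ebf1* (−1.77) and *Myb* (−1.18) did not pass and were lowest on *Mef2c*-deficient replicate 2.

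Of 8 listed genes whose products bind or turn over the RAG proteins 7 were measured. All 7 had negative log2 fold changes with a median of −1.01, and in all 7 the groups did not overlap, with the *Mef2c*-deficient arrays lower, as they were in 28.4% of all genes. Of the 7, 6 lay in level groups 8 to 10, where groups did not overlap, in either direction, in 60.1% to 66.9% of genes. The median of the list was −0.025 after cyclic loess, −0.067 after quantile normalization and −0.21 with housekeeping centring, with 0 genes called in each. Of the 7, *Cul4a* and *Cdk2* were called lower, where 16.7% of all genes and 35.9% of those in groups 8 to 10 were. *Cul4a*, a scaffold of the ubiquitin ligase that RAG1 joins, read 3395 and 5808 on the *Mef2c*-deficient arrays and 11351, 9648 and 19545 on the control arrays (log2 fold change −1.54, adjusted p = 0.109), and held its call under 9 of 15 settings. It did not pass without *Mef2c*-deficient replicate 1 (−1.15), with array weights (−1.35), with a replicate block (−1.24), after cyclic loess (−0.51), after quantile normalization (−0.65) or with housekeeping centring (−0.74). *Cdk2*, a kinase that marks RAG2 for destruction as cells enter S phase, read 4092 and 2357 on the *Mef2c*-deficient arrays and 6052, 6125 and 6602 on the control arrays (log2 fold change −1.01, adjusted p = 0.123). It did not pass without any 1 control array or *Mef2c*-deficient replicate 2 (−1.03 to −0.61), and its call held under 5 of 15 settings. Its log2 fold change was −0.025 after cyclic loess, −0.067 after quantile normalization, −0.21 with housekeeping centring and −0.70 in signal. *Skp2* (−1.51), *Kpna1* (−1.49), *Ddb1* (−0.99) and *Dcaf1* (−0.90) did not pass.

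**Figure D4:**
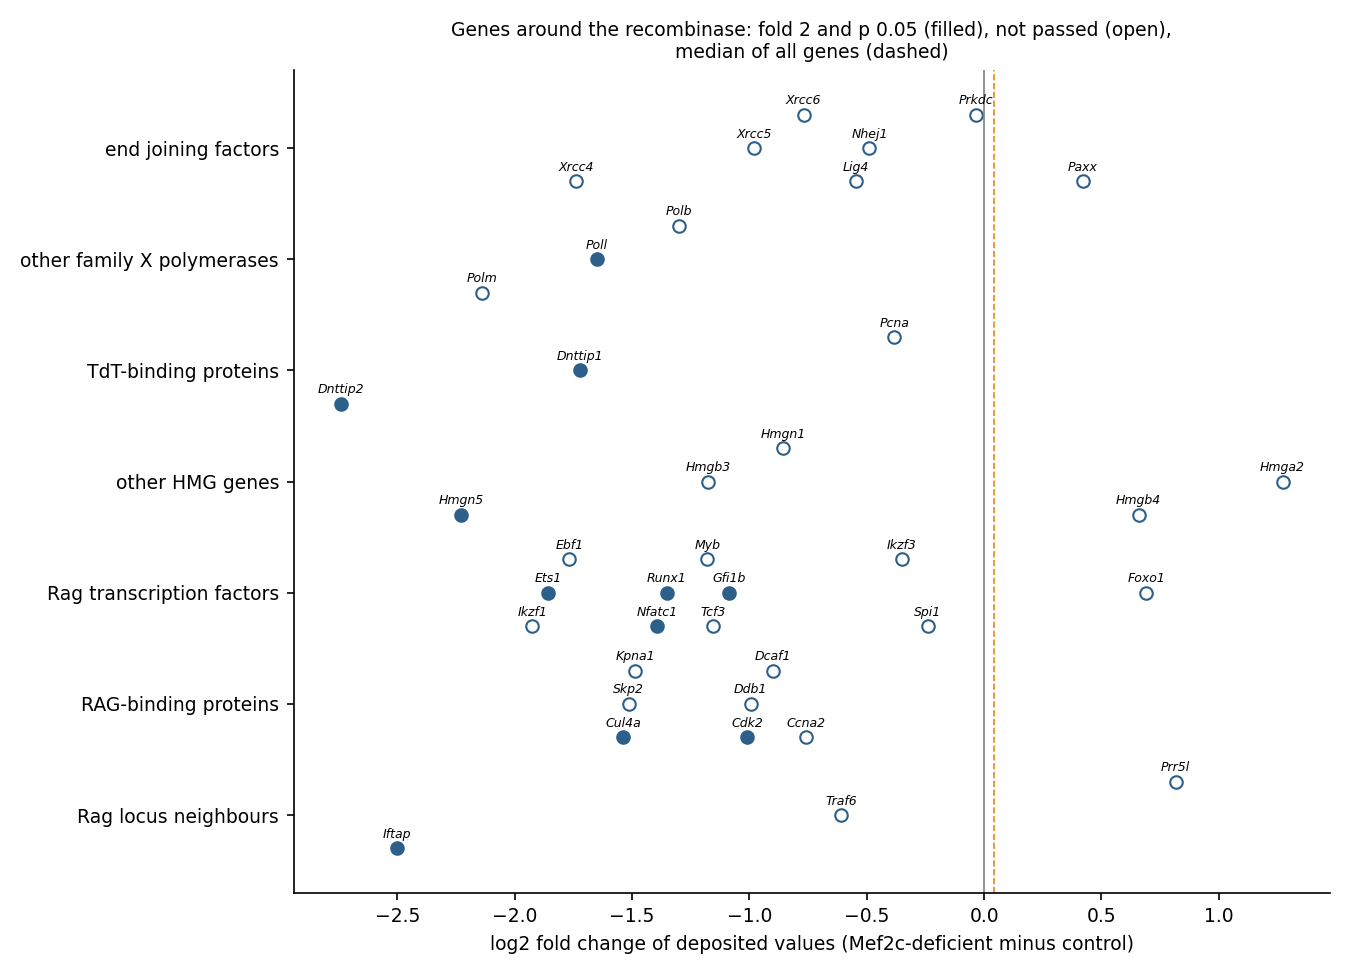
Log2 fold change (horizontal axis, Mef2c-deficient minus control) of the measured genes of 7 lists around the recombinase. Filled points passed a fold of 2 at an unadjusted limma p of 0.05 and open points did not. The dashed line is the median of all genes, 0.04. The 11 filled points are all lower in Mef2c-deficient cells, and Foxo1, Hmga2, Hmgb4, Paxx and Prr5l lie right of 0.

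Next to the *Rag* genes on chromosome 2, *Iftap* was called lower and *Traf6* and *Prr5l* were not. Over all genes, 16.7% were called lower. *Iftap*, which overlaps *Rag2* on the opposite strand in the RefSeq annotation (GRCm38.p6), read 375 and 59.3 on the *Mef2c*-deficient arrays and 678, 690.2 and 1294 on the control arrays (log2 fold change −2.50, standard error 0.86, adjusted p = 0.131). It did not pass without any 1 control array or *Mef2c*-deficient replicate 2 (−2.66 to −1.17), nor with housekeeping centring (−1.71). Control replicate 3 was the highest array for *Iftap* and *Traf6*, as for *Rag1* and *Rag2*, and among the lowest for *Prr5l*, which read 32.3 and 205 on the *Mef2c*-deficient arrays and 47.4, 64.5 and 32.3 on the control arrays. *Traf6*, an adaptor of receptor signalling, read 95.8 and 130.4 on the *Mef2c*-deficient arrays and 142, 130.4 and 266 on the control arrays.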

How the data were processed

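RNA of sorted bone marrow pro-B cells was measured on 5 one-colour Affymetrix arrays, 3 control and 2 *Mef2c*-deficient. The authors obtained the deposited intensity values by robust multiarray averaging (background adjustment, quantile normalization and summary per probe set). The values are linear, and 314 to 430 per array exceed 65535, the largest 16-bit signal. Versions of RMA and limma are not given in the sources used here. Pairs of arrays held identical values at 743 to 4182 probe sets, and no pair was identical throughout. Array control rows (26) were left out. Of 23809 probe sets, 17621 were annotated with 1 gene symbol, 516 with several and 5672 with none. For each of 17323 genes the probe set with the highest mean was kept, and log2 values were fitted with limma (3.58.1, R 4.3.3; lmFit and eBayes, Benjamini-Hochberg adjustment over all genes). *Hmgb1*, with shared probe sets only, was taken from a fit over all probe sets. The design had foreseen a gene-level value.

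The members and lists were chosen with earlier results of these data known. Named were all members, *Mef2c* and the 5 genes nearest to each member in pattern, among genes at or above the median level. From the lists around the recombinase, genes that passed and up to 4 others per list with the largest change were named, and *Foxo1* besides. Of the marker and housekeeping lists only some genes were named, and not all that passed. Pairs of members with their within-array differences were compared by exact permutation. The number of arrays limits the precision. Each log2 fold change and count of genes was recomputed under 15 settings, and the within-array differences under only some of these. The fit was tested on simulated data. Promoter windows of 250 bases were cut from RefSeq (GRCm38.p6), where all 5 members matched, and searched in Python 3.11.15. Replicate numbers were checked for pairing.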

Additional observations from a re-analysis of the deposited data

How the results depend on the processing

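No alternative called *Rag1*, *Rag2*, *Dntt*, *Hmgb2* or the brightest *Hmgb1* probe set, but the sign of each turned under at least 1. The log2 fold change of *Rag1* was 0.30 after a further quantile normalization, 0.57 after cyclic loess, 0.41 with housekeeping centring (8 of 12 genes measured) and 0.29 with array weights. Cyclic loess gave 0.071 for *Rag2*, 0.25 for the *Hmgb1* probe set and 0.24 for *Hmgb2*, housekeeping centring gave 0.41 for *Hmgb1* and 0.36 for *Hmgb2*, and quantile normalization gave 0.25 for *Hmgb2* and −0.49 for the difference *Hmgb1* minus *Hmgb2*. Housekeeping centring shifted the median of all genes to 0.84 and median centring to −0.19. Of the 8 housekeeping genes, 5 were themselves called lower in the main fit, with a median log2 fold change of −1.09. Centring on them therefore raised the fold change of every gene, and it was not a neutral scaling.

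With 1 array left out the log2 fold changes ran from −1.05 to 0.66 (*Rag1*), −1.81 to 0.38 (*Rag2*), −3.43 to 0.11 (*Dntt*), −0.71 to −0.06 (*Hmgb1*) and −0.98 to 0.092 (*Hmgb2*), and the within-array differences from −0.090 to 1.03 (*Rag1* minus *Rag2*), −0.15 to 0.27 (*Hmgb1* minus *Hmgb2*) and −3.33 to 0.78 (*Dntt* minus *Rag1*). The array that turned a sign was control replicate 3 for *Rag1* and *Rag2*, *Mef2c*-deficient replicate 1 for *Dntt* and for both differences with *Rag1*, and *Mef2c*-deficient replicate 2 for *Hmgb2* and for *Hmgb1* minus *Hmgb2*, which turned without control replicate 3 as well. The cause was not tested.

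A replicate block gave 0.66 for *Rag1* and 0.38 for *Rag2*, the values without control replicate 3, since the third control has no numbered partner. Nothing in the labels pairs same-numbered arrays, and the correlation of their deviations was 0.12 (replicate 1) and −0.012 (replicate 2). With 2 *Mef2c*-deficient arrays these correlations cannot decide whether the arrays were paired. The block called 1941 genes lower and 715 higher.

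The count of genes lower, 2897 here, was 1835 at a fold of 2 in signal, 1481 after quantile normalization, 1446 after cyclic loess and 679 with housekeeping centring. With 1 control array left out it was 1938 to 2163. That of genes higher, 1671, was 752 in signal, 1071 with median centring, 7298 with housekeeping centring, 266 without dim genes and 1028 with array weights, and 967 (without control replicate 1) to 3012 (without *Mef2c*-deficient replicate 2). Without control replicate 3 it was 984. With housekeeping centring 6522 genes had an adjusted limma p under 0.05. In a fit without 1 *Mef2c*-deficient array only 1 such array is left. Its limma p-values and calls then hold no spread between *Mef2c*-deficient samples. The call of *Poll* ended only with housekeeping centring (−0.85).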
